A study of Mus musculus with 4 samples.

Results

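The Notch genes followed here are 10 genes, taken by symbol from the 22063 genes of the deposited table: the receptors Notch1, Notch2 and Notch3, the ligands Jag1, Jag2 and Dll1, the nuclear factors Rbpj and Maml1, and the targets Hes1 and Hey1. They were measured by RNA-seq in ID8, a mouse ovarian cancer cell line grown from ovarian surface epithelium. The shCtrl libraries (2) came from ID8 cells of the labelled genotype WT with a control shRNA, and the shUSP9X libraries (2) from ID8 cells in which Usp9x, which encodes a deubiquitinase, was knocked down by an shRNA. The study cloned its shRNAs into a lentiviral vector with a puromycin marker, and the labels give no treatment, oxygen level or passage for these libraries. The descriptions of the shUSP9X libraries carry a further number whose meaning is not stated, so whether it names the shRNA, and whether both libraries carry the same one, is not known here. Nothing says that the 2 libraries of a group came from separate cultures, so p-values measure only the spread between these libraries.

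Notch receptors are transmembrane proteins that sense ligands on neighbouring cells. Ligand binding, and its endocytosis by the sending cell, exposes the receptor to an ADAM protease and then to gamma-secretase, which frees the intracellular domain. In the nucleus that domain joins RBPJ and a Mastermind-like protein (MAML) and switches on targets such as Hes1, Hey1 and Nrarp, and in many tissues this decides between stem-like and differentiated fates. Ubiquitin governs several steps, and the fly counterpart of USP9X, fat facets, is known for acting on the endocytic adaptor epsin in cells that send a Notch signal.

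The estimated counts summed to 17232006 and 15611363 in shCtrl and to 19978889 and 17021261 in shUSP9X. A count of 3 in a library, taken as the floor of detection, corresponds to 0.152 to 0.190 CPM, and it covers counting error only. Here CPM is the count scaled to library size, with edgeR's TMM factors. Usp9x stood at 298 and 281 CPM in shCtrl and at 19.7 and 20.5 CPM in shUSP9X, which fits the labels. The mesothelial and simple epithelial genes Krt8, Krt18, Krt19, Msln, Wt1 and Upk3b each exceeded 160 CPM in every library. The epithelial markers Epcam and Krt7 were at or near the floor, with at most 6 and 3 counts. The endothelial markers Cdh5 and Kdr had 0 counts in all libraries, while the 7 endothelial markers summed to 20.2 and 24.7 CPM in shCtrl and to 34.6 and 33.0 CPM in shUSP9X. Of these Esam was higher, at 9.51 and 12.9 CPM against 27.7 and 25.9 CPM, and Tek lower, at 9.91 and 10.4 CPM against 5.51 and 6.23 CPM. The deposited FPKM of Esam, which is also scaled for transcript length, overlapped between the groups. It was 5.45 and 23.8 in shCtrl and 15.5 and 14.2 in shUSP9X. The 7 fibroblast and smooth muscle markers, led by Dcn, summed to 185 and 183 against 126 and 124 CPM, with Pdgfrb and Lum at 0. Dcn was lower at -0.46 on the log2 scale (edgeR adjusted p = 1.77e-09), and its direction turned to 0.44 (edgeR adjusted p = 1.4e-08) once an offset took out the trend of fold changes along GC content and length. With that offset Krt19 also turned, from 0.12 to -0.17, and Upk3b from 0.05 to -0.12. Krt8, Krt18, Msln and Wt1 kept their direction. Of 9 leukocyte markers, Ptprc, Itgam and Adgre1 had 0 counts in both shCtrl libraries and 29 and 18, 72 and 75, and 58 and 59 counts in the shUSP9X libraries. They passed the filter only through the shUSP9X libraries, so their counts are given without a test. C1qa, C1qb and Cd3e had 0 counts in each library and Lyz2 at most 2. The 9 markers summed to 4.27 and 4.30 CPM in shCtrl and to 14.0 and 14.2 CPM in shUSP9X. Cd68 was the most abundant of them, with 4.27 and 4.30 CPM in shCtrl against 5.97 and 5.04 CPM in shUSP9X (edgeR adjusted p = 0.125). In bulk RNA, fewer cells of a kind and less RNA per cell cannot be told apart.

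In shUSP9X cells the receptor gene Notch3, the ligand gene Jag2 and the target gene Hes1 were lower, by 2.77-fold, 2.46-fold and 1.78-fold. Of 4 other targets tested, Nrarp was lower, a call that 3 alternative fits did not keep, and Myc, Cdkn1a and Ccnd1 were higher. Jag1, the main ligand gene, was slightly lower, and the coactivator gene Maml1 was 1.46-fold higher. The most abundant receptor, Notch2, and the DNA-binding factor Rbpj differed by 1.08-fold and 1.05-fold. With the GC content and length offset, however, their log2 fold changes were 0.71 and 0.54 (edgeR adjusted p = 3.03e-12 and 7.96e-10). Of the 10 genes, 9 passed the filter on low counts, and 7 passed an adjusted p of 0.05, 4 of them lower and 3 higher (edgeR's quasi-likelihood test, Benjamini-Hochberg over 11448 genes). Notch1, 1 of the 3 higher, entered the test only through the shUSP9X libraries, where it is high, so its call adds no support. With at least 10 counts required in every library, 8 members were tested, of which 2 were higher and 4 lower. That filter left 10866 genes of the table, of which 7408 were called, 3692 higher and 3716 lower. Of the 11448 genes of the main test 67.3% were called at an adjusted p of 0.05, 33.6% lower and 33.8% higher. A call is thus the usual outcome in these libraries, and the count says little about Notch genes as a set. At the cutoff of the study's methods, read here as a change of over 1.5-fold whose p before adjustment is under 0.05, 3 members were lower (Notch3, Jag2 and Hes1) and 1 higher (Notch1, with the same limit), and 29.5% of all genes passed, 18.7% lower and 10.8% higher, so the whole table leaned to lower at this cutoff. The median log2 fold change of the 9 genes was -0.12, against 0.00 for all genes tested.

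**Figure D1:**
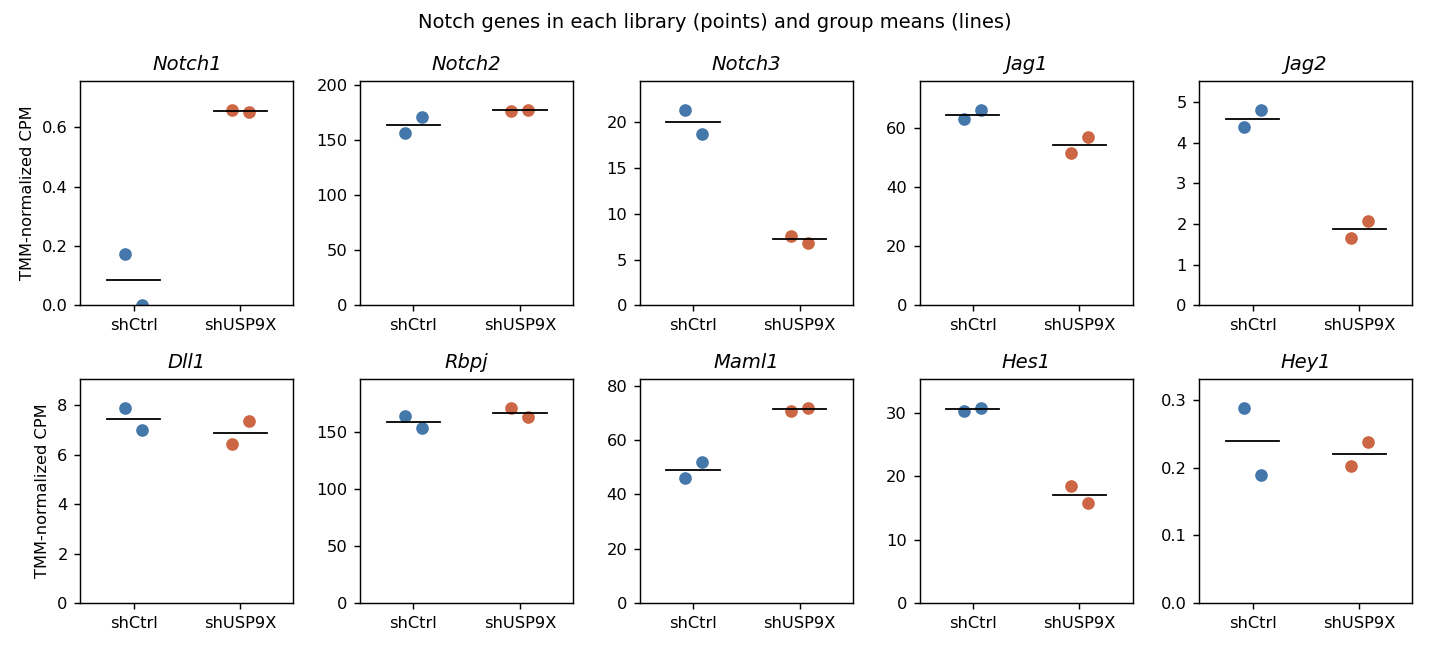
TMM-normalized CPM of the 10 Notch genes in each library, with shCtrl at the left and shUSP9X at the right of each panel, points for the 2 libraries, lines for their mean and axes that start at 0. Both shUSP9X points lie below both shCtrl points for Notch3, Jag1, Jag2 and Hes1, above them for Notch1, Notch2 and Maml1, and the groups overlap for Dll1, Rbpj and Hey1. With 2 libraries per group such a separation is a weak criterion. The share of all genes that separate is not given here, so nothing follows for Notch genes as a set.

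Fold changes in these libraries followed the base composition of the transcripts, and this bears on every gene named here. Among the 1143 tested genes lowest in GC (31 to 41.2%) the median was -0.80 on the log2 scale, and among the 1143 highest (57.8 to 74.7%) it was 0.19. Over genes, which are no replicates of each other, Spearman's rho with the fold change was 0.429 for GC content and -0.322 for transcript length. A second fit removed this trend from each library by an offset, and with it any part of the knockdown's effect that runs along GC content or length. By GC content alone, the transcripts of Notch3 and Jag2, with 59.6% and 61.9% GC, lie where the median gene was higher in shUSP9X. That of Rbpj, with 43.7%, lies where it was lower. The offset also takes in length, which is 8016 bases for Notch3, 5106 for Jag2, 5485 for Rbpj and 10500 for Notch2. Under it Notch3 moved only from -1.47 to -1.43 and Jag2 from -1.30 to -1.33. Notch2 moved from 0.11 to 0.71 and Rbpj from 0.07 to 0.54. With the offset 4 members were higher and 3 lower, against 3 and 4 without it. The whole table moved the same way, with 63.7% of all genes called under the offset, 36% higher and 27.7% lower.

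**Figure D2:**
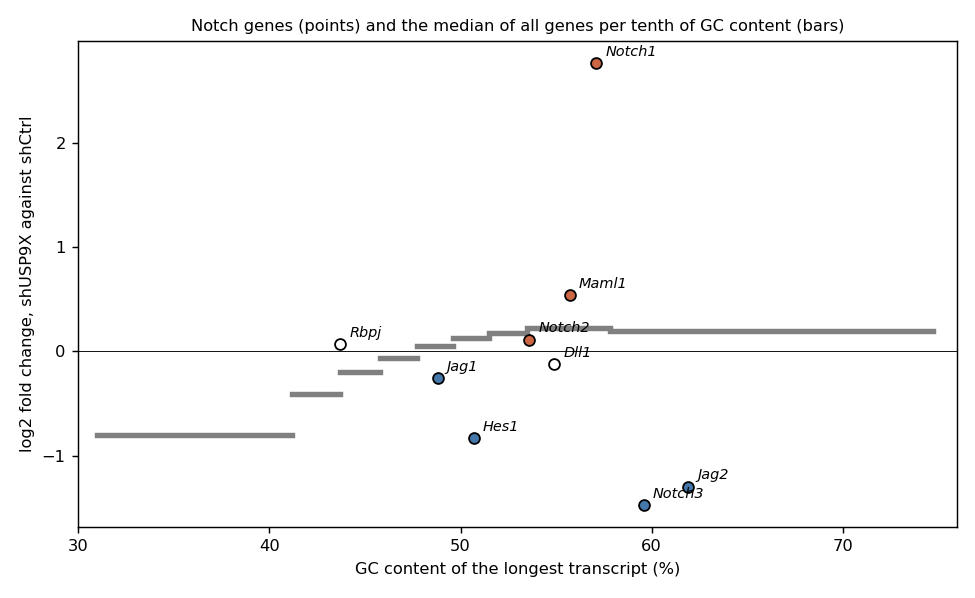
Log2 fold change of the 9 tested Notch genes (points, blue for lower, orange for higher and white for not called) against the GC content of the longest transcript, with grey bars for the median of all genes in 10 bins of GC content. Notch3, at -1.47, and Jag2, at -1.30, lie where the bars are above 0. The bars follow GC content alone and leave out transcript length.

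Among the receptors, Notch2 (ENSMUSG00000027878, chromosome 3 of GRCm38, 98013527 to 98150361) supplied most of the receptor mRNA. It had 156 and 171 CPM in shCtrl and 176.6 and 176.9 CPM in shUSP9X. The groups did not overlap, yet they differed by no more than the gap between the shCtrl libraries. The change on the log2 scale was 0.11 (standard error, SE, 0.05, edgeR adjusted p = 0.0370), and the call was lost in 7 of 14 alternative fits. These were DESeq2 (adjusted p = 0.106), edgeR with library size only (0.124), both limma fits on FPKM (0.379 and 0.377), and edgeR without shCtrl replicate 1 (0.276), without shUSP9X replicate 1 (0.137) or without shUSP9X replicate 2 (0.121). With the GC content and length offset the log2 fold change was 0.71 (edgeR adjusted p = 3.03e-12). Whether Notch2 mRNA rose or stayed level relative to other genes therefore depends on that scaling.

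Notch3 (ENSMUSG00000038146, chromosome 17, 32120820 to 32166852), a receptor best known from vascular smooth muscle and amplified in some ovarian carcinomas, had counts of 370 and 296 in the shCtrl libraries and of 150 and 115 in the shUSP9X libraries. As CPM it stood at 21.3 and 18.7 in shCtrl and at 7.59 and 6.82 in shUSP9X, a mean of 20.02 ± 1.85 against 7.20 ± 0.539 (SD, n = 2 libraries each). The fall was several times the gap within either group. On the log2 scale the change came to -1.47 (SE 0.13, edgeR adjusted p = 2.58e-10), and over 14 alternative fits it lay between -1.56 and -0.90 with the call kept in each. Among the fibroblast and smooth muscle markers, Pdgfra fell in the same libraries, from 15.7 and 13.6 CPM to 1.72 and 2.31 CPM (log2 fold change -2.87, edgeR adjusted p = 6.65e-13, and -2.63 with the offset). Dcn, the most abundant of these markers, was at -0.46 without the offset and at 0.44 with it. Myh11, Acta2 and Tagln were low, with at most 1, 21 and 19 counts in a library. The part of such cells or states in the Notch3 values was not tested.

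Notch1 (ENSMUSG00000026923, chromosome 2, 26457903 to 26516663), the receptor that T-cell leukaemias activate, was at the edge of detection, with 3 and 0 counts in the shCtrl libraries and 13 and 11 in the shUSP9X libraries. It passed the filter only through the shUSP9X libraries. The ratio of its summed, depth-scaled counts was 7.24, which describes these libraries and adds no support. On the log2 scale its fitted change was 2.77, against 6.54 without shCtrl replicate 1 and 1.88 without shCtrl replicate 2. Its call (edgeR adjusted p = 0.00664) was lost in DESeq2 (adjusted p = 0.0510). It was also lost without shCtrl replicate 2 (edgeR adjusted p = 0.0981) and without shUSP9X replicate 2 (edgeR adjusted p = 0.0529). The leukocyte markers Ptprc, Itgam and Adgre1 also had counts in the shUSP9X libraries alone, and their part in the Notch1 counts was not tested. Notch4, the endothelial receptor, was not tested, with counts of 4 and 5 in the shCtrl libraries and of 0 and 1 in the shUSP9X libraries.

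Among the ligands, Jag1 (ENSMUSG00000027276, chromosome 2, 137081456 to 137116644) was the most abundant. It had 62.9 and 65.9 CPM in shCtrl and 51.4 and 56.8 CPM in shUSP9X, so the groups did not overlap. The change on the log2 scale was -0.25 (SE 0.07, edgeR adjusted p = 0.00146). The call was lost with the GC content and length offset (log2 fold change -0.15, edgeR adjusted p = 0.0504) and without shUSP9X replicate 1 (-0.18, edgeR adjusted p = 0.0802).

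Jag2 (ENSMUSG00000002799, chromosome 12, 112907819 to 112929776), a second ligand of the Jagged type, fell further. It had 76 counts in each shCtrl library and 33 and 35 in the shUSP9X libraries, or 4.38 and 4.80 CPM against 1.67 and 2.08 CPM. Both shUSP9X values lay under the lower shCtrl value by more than the gap within a group. On the log2 scale the change came to -1.30 (SE 0.27, edgeR adjusted p = 1.74e-04), and over 12 alternative fits it stayed between -1.45 and -1.14 with the call kept. The deposited FPKM of Jag2, a value scaled for transcript length and library size, goes another way: it was 0.864 and 0.953 in shCtrl, 0.330 in shUSP9X replicate 1 and 1.04 in shUSP9X replicate 2. In that last library the FPKM corresponds to a transcript of 1983 bases, against 5005 to 5108 in the others, so the counts and not the FPKM were used for Jag2.

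Dll1 (ENSMUSG00000014773, chromosome 17, 15367354 to 15376872), a ligand of the Delta type, had 7.90 and 7.02 CPM in shCtrl and 6.42 and 7.36 CPM in shUSP9X, and the groups overlapped. Its log2 fold change was -0.12 with a 95% interval of -0.48 to 0.23 (edgeR adjusted p = 0.551), so that neither a small fall nor a small rise can be told from these libraries. The other Delta-type ligand genes were at or under the floor. Neither Dll3 nor Dll4 had a count in shCtrl, and the shUSP9X libraries held 2 and 2 for Dll3 and 3 and 0 for Dll4.

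Levels of different genes were compared per transcript length, as FPKM. In shCtrl the order was Rbpj (30.7 and 28.8 FPKM), Hes1 (20.8 and 21.3), Notch2 (15.0 and 16.5), Jag1 (11.3 and 11.9), Maml1 (8.79 and 10.03), Notch3 (2.68 and 2.37), Dll1 (2.22 and 1.99), Jag2, Hey1 and Notch1. Neighbours in this order did not overlap, though Notch3 and Dll1 lay closer to each other than the 2 Notch3 values. In shUSP9X the order of FPKM began with Rbpj (31.5 and 30.4) and Notch2 (16.7 in both), followed by Maml1 (12.9 and 13.2), Hes1 (12.5 and 10.6) and Jag1 (9.06 and 10.02). Hes1 thus went from the second to the fourth place, and Dll1 (1.78 and 2.03 FPKM) passed Notch3 (0.937 and 0.843 FPKM).

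Notch2 made up 84.6 and 87.2% of the summed FPKM of the 4 receptors in shCtrl and 94.3 and 94.8% in shUSP9X. The share of Notch3 was 15.1 and 12.5% in shCtrl and 5.31 and 4.79% in shUSP9X, with no overlap. Jag1 took 78.5 and 80.2% of the summed FPKM of the 5 ligands in shCtrl and 80.6 and 76.3% in shUSP9X, and these values overlapped. The last of them includes the Jag2 FPKM described above, and from CPM per kb of the longest transcript Jag1 took 80.2% there. These shares are a description and were not tested.

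**Figure D3:**
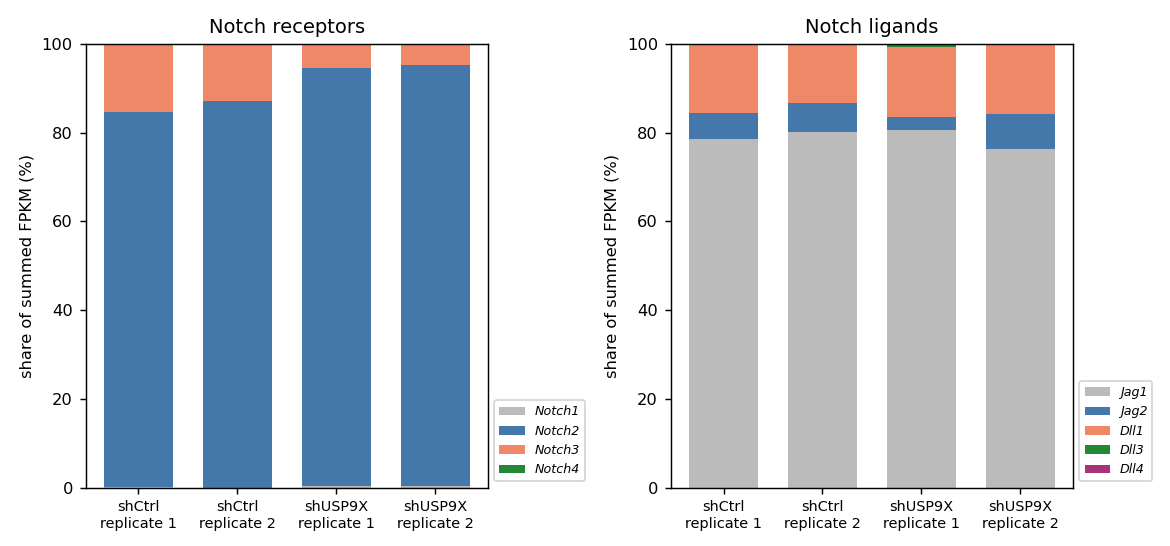
Share of the summed FPKM (%) of each Notch receptor (left) and each ligand (right) in the 4 libraries, as stacked bars that start at 0. The Notch3 segment is smaller in both shUSP9X libraries, at 5.31 and 4.79%, and Jag1 is the largest ligand segment throughout.

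Of the nuclear factors Maml1 rose, and Rbpj did not pass the test. Rbpj (ENSMUSG00000039191, chromosome 5, 53466152 to 53657362), the DNA-binding partner of the Notch intracellular domain, had 164 and 153 CPM in shCtrl and 171 and 163 CPM in shUSP9X, and the groups overlapped. The log2 fold change was 0.07 with a 95% interval of -0.02 to 0.17 (edgeR adjusted p = 0.171). It was 0.54 with the GC content and length offset (edgeR adjusted p = 7.96e-10) and 0.13 without shCtrl replicate 1 (edgeR adjusted p = 0.0158). One library holds a count of Rbpj that is not whole (3381.21), as happens when reads are divided between loci.

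Maml1 (ENSMUSG00000050567, chromosome 11, 50255634 to 50292311), which recruits histone acetyltransferases to the complex, had 46.2 and 51.8 CPM in shCtrl and 70.9 and 71.8 CPM in shUSP9X. The rise exceeded the gap between the shCtrl libraries. The change on the log2 scale was 0.54 (SE 0.07, edgeR adjusted p = 5.61e-08), and it stayed between 0.44 and 0.63 over 14 alternative fits with the call kept.

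Among the targets, Hes1 (ENSMUSG00000022528, chromosome 16, 30064384 to 30067796), a basic helix-loop-helix repressor, had counts of 526 and 487 in the shCtrl libraries and of 366 and 265 in the shUSP9X libraries. As CPM it stood at 30.3 and 30.8 in shCtrl and at 18.5 and 15.7 in shUSP9X, and both shUSP9X libraries were far under the shCtrl values. On the log2 scale the change came to -0.83 (SE 0.10, edgeR adjusted p = 7.72e-08). It lay between -1.06 and -0.71 over 14 alternative fits, and was -1.06 with the GC content and length offset. Hey1 (ENSMUSG00000040289, chromosome 3, 8663359 to 8667256), a related repressor, had counts of 5 and 3 in the shCtrl libraries and of 4 and 4 in the shUSP9X libraries. It did not pass the filter and gives no fold change. Hey2, Heyl and Hes5 had 0 counts in each library, which allows up to 0.152 to 0.190 CPM.

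**Figure D4:**
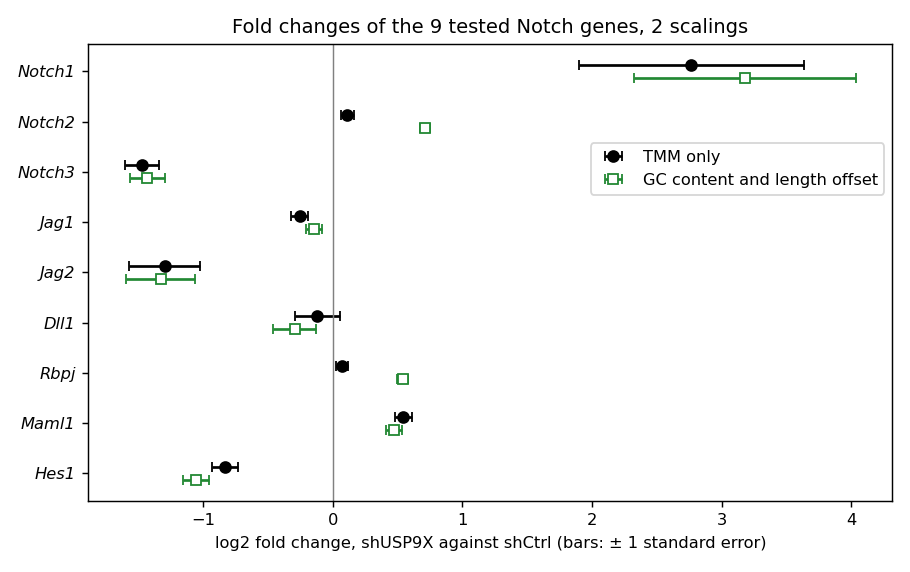
Log2 fold change of the 9 tested Notch genes with bars of ± 1 standard error, black circles for TMM scaling alone and green squares with the GC content and length offset. Notch3, Jag2, Hes1 and Maml1 keep their side of 0, with Hes1 moving from -0.83 to -1.06, Notch2 and Rbpj move from near 0 to 0.71 and 0.54, and the value of Notch1 rests on few counts and depends on the prior count of the fit.

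The promoters of 3 of the genes that fell are shown, since they share a direction and their neighbouring sequence can be read for sites of the pathway's own factors. The sequences are the 250 bases before the RefSeq start in GRCm38.p6, 5′ to 3′ on the strand of the gene, and capitals mark matches to CACNAG, the N-box letters that Hes proteins bind, on either strand. Notch3 lies at chr17:32166891-32167140 on the minus strand, Jag2 at chr12:112929496-112929745 on the minus strand and Nrarp at chr2:25180508-25180757 on the plus strand.
Notch3: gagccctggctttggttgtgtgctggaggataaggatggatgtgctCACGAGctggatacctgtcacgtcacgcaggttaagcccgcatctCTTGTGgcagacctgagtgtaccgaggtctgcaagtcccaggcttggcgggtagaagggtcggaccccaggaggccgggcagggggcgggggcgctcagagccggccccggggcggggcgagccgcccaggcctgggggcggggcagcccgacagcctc
Jag2: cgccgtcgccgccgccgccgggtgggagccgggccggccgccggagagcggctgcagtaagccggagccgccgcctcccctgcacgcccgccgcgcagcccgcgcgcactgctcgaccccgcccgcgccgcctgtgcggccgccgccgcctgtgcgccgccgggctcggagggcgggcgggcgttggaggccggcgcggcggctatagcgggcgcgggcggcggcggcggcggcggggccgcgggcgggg
Nrarp: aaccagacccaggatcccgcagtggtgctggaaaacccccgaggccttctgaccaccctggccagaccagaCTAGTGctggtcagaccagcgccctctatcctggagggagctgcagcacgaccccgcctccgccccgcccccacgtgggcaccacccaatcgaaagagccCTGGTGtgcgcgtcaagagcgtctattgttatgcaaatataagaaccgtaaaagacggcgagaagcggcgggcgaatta
Notch3 and Nrarp hold 2 N-box matches each and Jag2 none, and 36.7% of all 32851 promoters of this length hold at least 1. The RBPJ core letters TGGGAA, searched on both strands, are in none of the 3, and 21.6% of all promoters hold them. RefSeq promoters were matched for 8 of the 10 members, and of these only those of Rbpj hold TGGGAA, while Notch1 and Notch2 also hold the N-box letters. The 250 bases of Jag2 have 87.2% GC, against 68.8% for Notch3 and 61.2% for Nrarp.

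Of 63 further genes of the pathway, listed by role, 51 passed the filter. An edgeR adjusted p under 0.05 was reached by 40, 20 of them higher and 20 lower, or 78.4%, against 67.3% of all genes tested. Their median log2 fold change was 0.04, against 0.00 for all genes. With the GC content and length offset 23 were higher and 16 lower, where the calls over all genes also leaned to higher (36% against 27.7%). Direction changed with that offset for 10 of the 51, and Mib1, Ep300, Crebbp and Tle3 were called in both fits with opposite signs.

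Other targets: Nrarp, which is induced by Notch and limits it, had counts of 41 and 31 in the shCtrl libraries and of 16 and 20 in the shUSP9X libraries. Both shUSP9X libraries were lower, at -1.13 in log2 fold change (standard error 0.38, edgeR adjusted p = 0.0114). The call was lost in DESeq2 (adjusted p = 0.0663), without shCtrl replicate 1 (edgeR adjusted p = 0.118) and without shUSP9X replicate 1 (edgeR adjusted p = 0.173). The growth gene Myc, which Notch can switch on among many other inputs, went the other way, with 109 and 114 CPM in shCtrl and 220 and 218 CPM in shUSP9X (log2 fold change 0.97, edgeR adjusted p = 2.79e-16). Cdkn1a, which encodes the cell cycle inhibitor p21, and Ccnd1, which encodes cyclin D1, were also higher, with log2 fold changes of 0.55 and 0.32 (edgeR adjusted p = 5.47e-10 and 1.16e-09), which became 0.30 and 0.22 with the offset. These 4 were the genes that passed the filter among 9 targets listed besides the members, with 3 higher and 1 lower. Over all genes tested 67.3% were called, 33.8% higher and 33.6% lower.

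Receptor sugars: fringe enzymes extend the O-fucose on Notch receptors and so set which ligands they answer to. Rfng (radical fringe) had 7.26 and 7.08 CPM in shCtrl and 27.9 and 24.3 CPM in shUSP9X. That rise of 1.87 on the log2 scale (standard error 0.13, edgeR adjusted p = 6.77e-13) was larger than that of any member but Notch1. It stayed between 1.58 and 1.97 over 14 alternative fits. Lfng (lunatic fringe), with 31.6 and 33.8 CPM in shCtrl and 33.1 and 30.9 CPM in shUSP9X, overlapped between the groups (edgeR adjusted p = 0.772), although with the offset its log2 fold change was -0.27 (edgeR adjusted p = 0.00660). Mfng stayed out of the test with at most 8 counts. Pofut1, which adds the O-fucose, changed by 0.16 on the log2 scale (edgeR adjusted p = 0.0232), and the call was lost in DESeq2 (adjusted p = 0.105). It was also lost in edgeR with library size only (adjusted p = 0.0599) and in both limma fits on FPKM (adjusted p = 0.438 and 0.435).

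Receptor cleavage: all 9 tested genes of this list were called, 6 higher and 3 lower, or 4 and 3 with the offset, in a table where 67.3% of all genes were called without it and 63.7% with it. The ADAM proteases of the first cut were lower. Adam10 had 298 and 285 CPM in shCtrl and 187 and 179.6 CPM in shUSP9X (log2 fold change -0.67), and Adam17 had 121 and 108 against 83.2 and 87.4 CPM (-0.43). With the offset these became -0.17 and -0.18 (edgeR adjusted p = 4.2e-04 and 0.00553), so most of the fall of Adam10 went with the trend. The gamma-secretase subunit genes Psen2, Ncstn, Aph1a and Psenen were higher, with log2 fold changes of 0.88, 0.27, 0.25 and 0.40. With the offset Psen2 (0.62) kept most of that rise and Ncstn was at 0.11 (edgeR adjusted p = 0.0491), while Aph1a (edgeR adjusted p = 0.353) and Psenen (edgeR adjusted p = 0.232) lost the call. Aph1b, which may share reads with its close copy Aph1c, was lower, at 12.97 and 15.8 CPM in shCtrl and 6.37 and 6.76 CPM in shUSP9X (log2 fold change -1.13, edgeR adjusted p = 2.64e-07), and was -0.66 with the offset and -0.63 in limma on log2(FPKM + 1). Furin, which cuts the receptor on its way to the surface, was higher (log2 fold change 0.57, edgeR adjusted p = 4.92e-11).

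Endocytosis and ubiquitin ligases: of 14 tested genes, 4 were higher and 6 lower, or 71.4%, near the 67.3% of all genes, and 5 and 5 with the offset. Epn1 and Epn2, which encode the epsin adaptors, had log2 fold changes of 0.06 and 0.08 (edgeR adjusted p = 0.365 and 0.228), and the groups of Epn1 overlapped. With the offset Epn1 was at -0.12 (edgeR adjusted p = 0.0237). Mib2, a ligase for Notch ligands, had 17.6 and 16.4 CPM in shCtrl and 10.2 and 9.49 CPM in shUSP9X (log2 fold change -0.79, edgeR adjusted p = 5.1e-06), and was -0.91 with the offset. Its relative Mib1 was lower without the offset (-0.57, edgeR adjusted p = 3.45e-10) and higher with it (0.52, edgeR adjusted p = 1.23e-08), so no direction can be given. Fbxw7, which marks the cleaved Notch domain for destruction, was lower without and with the offset (-0.61 and -0.47). Itch, a ligase that acts on Notch and is itself stabilized by USP9X in other cells, was lower only without the offset (-0.55 against 0.04, the latter with an edgeR adjusted p = 0.573). Numb, an inhibitor of Notch, overlapped between the groups, with 31.6 and 32.3 CPM in shCtrl and 30.9 and 32.8 CPM in shUSP9X.

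Nuclear partners: of 7 co-activator genes tested 2 were higher and 4 lower, but 4 higher and 2 lower with the offset, which moved their median log2 fold change from -0.21 to 0.45. Over all genes 33.8% were higher and 33.6% lower without the offset, and 36% and 27.7% with it. Maml2, a relative of Maml1, fell where Maml1 rose, from 15.0 and 13.7 CPM to 6.37 and 7.30 CPM (log2 fold change -1.07, edgeR adjusted p = 3.74e-07). Maml3 was at -0.30 on the log2 scale (edgeR adjusted p = 0.198). The acetyltransferase genes Kat2a and Kat2b moved apart, at 0.80 and -0.62 (edgeR adjusted p = 8.14e-14 and 1.31e-09). Of 12 co-repressor genes, 2 were higher and 6 lower, or 66.7% against 67.3% of all genes, and 4 and 4 with the offset. Cir1, whose product bridges RBPJ to histone deacetylases, fell from 26.1 and 24.5 CPM to 9.56 and 10.7 CPM (log2 fold change -1.33, edgeR adjusted p = 1.31e-10), and was -1.13 with the offset. Kdm5a, a histone demethylase, was -1.03 without the offset and 0.11 with it (edgeR adjusted p = 0.0850), and Ncor1, a corepressor scaffold, was -0.81 and -0.12. Of 6 other receptor and ligand genes only Dlk2, which encodes a Delta-like protein, passed the filter, and it was higher (log2 fold change 0.80, edgeR adjusted p = 8.98e-08).

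**Figure D5:**
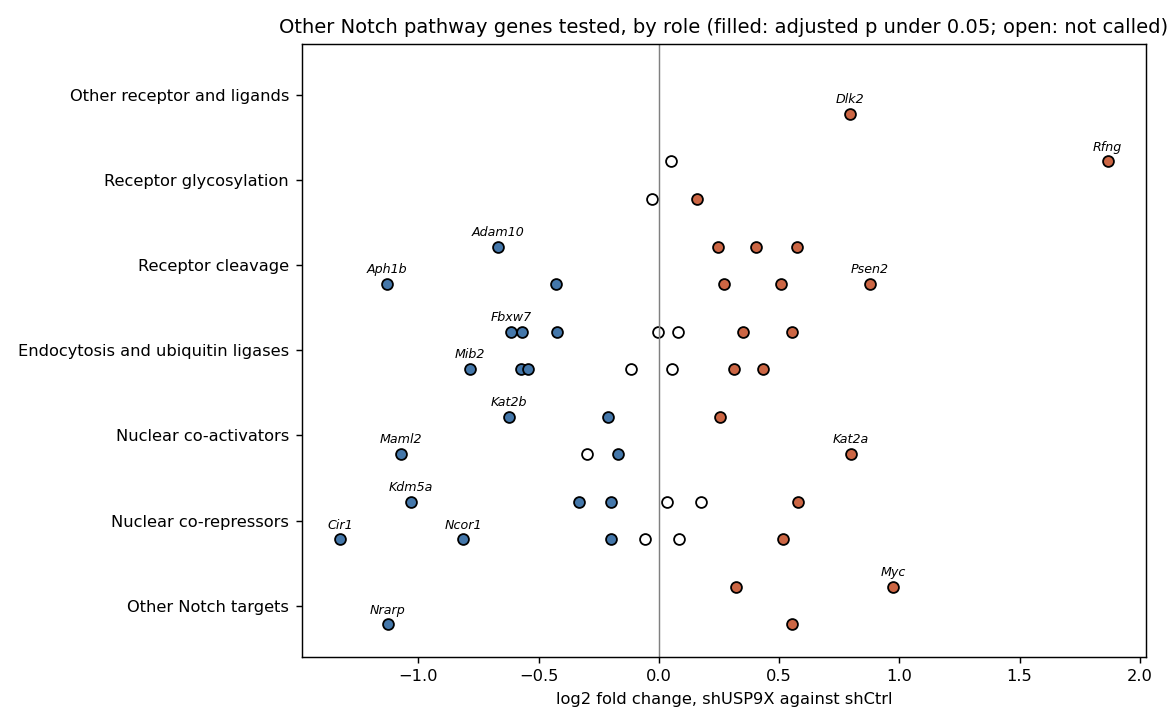
Log2 fold change of the 51 tested pathway genes besides the 10 members, 1 row per role, with filled points for an adjusted p under 0.05 (orange higher, blue lower), open points for genes not called and names beyond ± 0.6. Rfng lies farthest to the right at 1.87 and Cir1 farthest to the left at -1.33, and points lie on both sides of 0 in each row with more than 1 gene.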

How the data were processed

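Oligo(dT)-selected RNA of 4 ID8 libraries was sequenced on an Illumina NovaSeq. Per the study's methods, reads were mapped to GRCm38 and analysed with StringTie and DESeq2. The submitters' processing notes also name fastp 0.18.0, Bowtie2 2.2.8, HISAT2 and RSEM, without roles. The annotation release is not given in the sources used here. The authors deposited estimated counts, not normalized and not pooled, of which 6.40 to 6.69% per library were not whole, and FPKM values per library. The test had been planned for whole counts, so the estimated counts were rounded.

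After filterByExpr and TMM scaling, 11448 genes entered edgeR's two-sided quasi-likelihood test (edgeR 4.0.16 in R 4.3.3), adjusted by Benjamini-Hochberg over all of them. Alternatives were DESeq2 1.42.0, other scalings and filters, a replicate block, limma 3.58.1 on FPKM in log2 with a pseudocount of 1 or 0.1 (genes under a mean FPKM of 1 left out), a loess offset (span 0.3) on GC content and length of the longest GENCODE M21 transcript (known for 99.8% of tested genes), both together, and each library left out. Procedures were tested on simulated data.

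The kit named in the labels does not mark strand, so reads of overlapping antisense genes, as at Notch1, Notch3, Dll1, Maml1 and Nrarp, cannot be told apart. Members and lists were chosen with earlier results of these data known. Named genes are the members, Usp9x and, per role, the 3 called genes with the largest change. The others were named after their values were seen. Correlation of the deviations of same-numbered libraries was -0.045 over tested genes. Same-numbered libraries thus showed no shared shift, which cannot tell whether they were prepared together. Some genes of the lists are counted in them but not reported here by name.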

Additional observations from a re-analysis of the deposited data

How the results depend on the processing

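Library depth limits Hey1, Notch4, Dll3 and Dll4, with at most 5 counts in a library, and Notch1, with 3 and 0 counts in shCtrl, and with 2 libraries per group no permutation test can reach a p of 0.05. Of the 10 members 7 were called, 3 higher and 4 lower. DESeq2, the tool of the study, called 5, of which 1 was higher and 4 lower, and scaling by library size alone gave 6, 2 higher and 4 lower. Of all 11448 genes tested, DESeq2 called 6563, 3326 higher and 3237 lower. Library size alone gave 7691, 3659 higher and 4032 lower. Limma on log2(FPKM + 1) and on log2(FPKM + 0.1) called 6349 and 6326 of 10347 genes. The number of members called was 4 in both limma fits, where 7 members had a mean FPKM of at least 1, and 4 at p under 0.05 with a fold change above 1.5. It was 4 to 7 with a library left out, the lowest without shUSP9X replicate 1. At that cutoff 15 of the 51 pathway genes passed, against 40 called, and 3376 genes of the table, against 7707. Left-out libraries gave 36 to 39 called pathway genes and 6741 to 7521 called genes of the table. Usp9x, Notch3, Hes1 and Maml1 kept direction and call in all alternative fits, and so did Jag2 in the 12 fits that tested it.

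With the replicate block 7 members, 40 pathway genes and 7665 genes of the table were called. Same-numbered libraries showed no shared shift (correlation -0.045), which cannot tell whether they were prepared together. The block changed no call of a member or a pathway gene. With the block and the GC content and length offset together 8 members were called, with Jag1 added to the 7 under the offset alone. Of the 11448 genes tested, 7270 were called in that fit, 4112 higher and 3158 lower.

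Direction turned with the GC content and length offset for 10 pathway genes, and with the block added the log2 fold changes were nearly the same. They were 0.522 for Mib1 (0.522 with the block), 0.522 for Crebbp (0.523), 0.447 for Ep300 (0.447), 0.142 for Tle3 (0.142), 0.138 for Numbl (0.133), 0.112 for Kdm5a (0.112), 0.035 for Itch (0.035), 0.011 for Hdac2 (0.011), -0.124 for Epn1 (-0.124) and -0.140 for Hdac1 (-0.140). Genes near 0 also turned elsewhere. Epn1 was -0.019 under both limma fits and Numb 0.006 with no filter. With a library left out, the log2 fold change ranged from -0.022 (without shCtrl replicate 1) to 0.151 for Epn1, from -0.039 to 0.043 (without shUSP9X replicate 1) for Numb, from -0.077 to 0.025 (without shUSP9X replicate 2) for Lfng, from -0.116 to 0.017 (without shCtrl replicate 2) for Ctbp2 and from -0.249 to 0.010 (without shUSP9X replicate 2) for Numbl. For the offset the change follows from its construction, since it removes what goes with GC content and length, and for the other settings the cause was not tested.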

Other observations

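The genes whose CPM over the 4 libraries lay nearest to a member were sought among 7796 tested genes with a mean log2 CPM of at least 4, by the Euclidean distance of centred log2 CPM. With groups of 2 libraries such a distance mostly reads the fold change, and nothing follows from it about shared control. Nearest to Notch1, the member with the largest fitted change, were Adh7, an alcohol dehydrogenase gene, and the interferon-inducible genes Bst2 and Ifi35, at distances of 0.716, 0.818 and 0.835. These distances rest on 0 to 13 counts of Notch1. Nearest to Notch3, chosen after its values were seen, were Sh3kbp1, Braf and Phf3, at 0.072, 0.073 and 0.110. The transcripts of these 3 genes have 43.8, 42.6 and 43.7% GC, against 59.6% for Notch3.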
